A study of Rattus norvegicus with 7 samples.

Results

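The 4 surfactant protein genes Sftpc, Sftpb, Sftpa1 and Sftpd were followed through isolated rat alveolar type 2 cells after chronic ethanol feeding. They were found by gene symbol in the annotation of the array, which gave 4 of 4736 genes and 6 of the 8740 probe sets tested: 1 for Sftpc, 2 for Sftpb, 2 for Sftpa1 and 1 for Sftpd. A probe set is a group of oligonucleotides on an Affymetrix array whose signals are summarised into 1 value for a transcript. The ethanol group held 3 male Sprague Dawley rats given the Lieber-DeCarli liquid diet with 36% of calories as ethanol for 6 weeks, and the control group held 4 male Sprague Dawley rats given an isocaloric diet without ethanol for the same 6 weeks. Immuno-adsorption was used to isolate type 2 cells from each animal, and their Trizol-extracted RNA went onto 1 array per animal. The ethanol arrays carry the replicate numbers 2, 3 and 4 and the controls the numbers 1 to 4. The titles hold no ethanol replicate 1 and skip an array number between the groups, so no such array was analysed here and the ethanol means rest on the 3 given. All control arrays have lower array numbers in their titles than the ethanol arrays, so diet and anything that follows that numbering cannot be told apart.

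Alveolar type 2 cells make pulmonary surfactant, the film of lipid and protein that lowers surface tension in the alveolus. Surfactant proteins B and C are small hydrophobic proteins, cut from longer precursors and packed with phospholipid into lamellar bodies before secretion. Surfactant proteins A and D are collectins, large water-soluble lectins that bind carbohydrates on microbes and help clear them. In the epithelium, the transcription factor NKX2-1 is a known activator of surfactant protein genes, and SP-C is the one most restricted to the type 2 cell.

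None of the 4 genes passed the test for a difference between ethanol-fed and control rats. In limma, with Benjamini-Hochberg adjustment over all 8740 probe sets, 0 of the 6 probe sets had an adjusted p under 0.05, against a background of 0.149% of all probe sets. At unadjusted p under 0.05 there were also 0 of 6, where the background was 4.58%. Ethanol and control values overlapped in all 6, while the groups did not overlap in 5.24% of all probe sets. The direction was not shared: on the deposited scale Sftpc and Sftpd were lower with ethanol and Sftpb and Sftpa1 were higher. After quantile normalization 1 of the Sftpa1 probe sets, M33201_at, turned to -0.098. Sftpc is the brightest probe set on every array, so that normalization fixes its difference at 0.0 and cannot show its direction. Values are the deposited log2 expression values, and differences are on the log2 scale, ethanol minus control.

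Sftpc, which encodes surfactant protein C, was read by X14221_at. Its log2 values were 12.41, 12.78 and 12.55 in ethanol 2, 3 and 4, against 12.82, 12.84, 12.77 and 12.76 in controls 1 to 4. Ethanol 2 and ethanol 4 lay below every control, and ethanol 3 lay within the control range. The mean was 12.58 ± 0.186 with ethanol (SD, n = 3) and 12.80 ± 0.039 in controls (SD, n = 4). The difference was -0.22 (SE 0.122, limma adjusted p = 0.967), with a 95% confidence interval of -0.49 to 0.055. In fold terms the ethanol level was 0.859 times the control level, with bounds of 0.710 and 1.04. The SD among ethanol arrays was 4.75 times the SD among controls, which was not tested. X14221_at was the brightest probe set on each of the 7 arrays and stood 0.672 to 1.02 log2 units above the next brightest. Whether its probes were near saturation cannot be read from the summarised values.

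Sftpb, which encodes surfactant protein B, had a pair of probe sets made from the same expressed sequence tag. The brighter, rc_AI170380_at, had log2 values of 11.24, 11.52 and 11.71 in ethanol 2, 3 and 4, against 11.36, 11.31, 11.36 and 11.46 in controls 1 to 4. Ethanol 3 and 4 were above all controls and ethanol 2 was below them, so the ethanol arrays bracketed the control range. The difference was 0.12 (SE 0.134, 95% confidence interval -0.18 to 0.42, limma adjusted p = 0.971). It was 0.0081 without ethanol 4 and 0.24 without ethanol 2. The other, rc_AI170380_g_at, had log2 values of 10.63, 11.09 and 11.31 in ethanol 2, 3 and 4, against 10.85, 10.52, 10.74 and 11.07 in controls 1 to 4. Here too ethanol 3 and 4 were the highest arrays, and control 2 was the lowest. Its difference was 0.21 (SE 0.187, 95% confidence interval -0.21 to 0.64, limma adjusted p = 0.967), with 0.065 without ethanol 4 and 0.41 without ethanol 2. The SD among ethanol arrays was 3.75 times that among controls for rc_AI170380_at and 1.52 times for rc_AI170380_g_at.

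Sftpa1, which encodes the collectin surfactant protein A, was read by X13176cds_s_at and M33201_at. X13176cds_s_at had log2 values of 10.55, 11.06 and 11.04 in ethanol 2, 3 and 4, against 10.66, 10.27, 10.60 and 11.07 in controls 1 to 4. Ethanol 3, ethanol 4 and control 4 formed the high end, and control 2 was the lowest array. The difference was 0.23 (SE 0.202, 95% confidence interval -0.22 to 0.68, limma adjusted p = 0.967), and it was 0.10 without control 2 and 0.40 without ethanol 2. M33201_at had log2 values of 10.21, 10.86 and 10.81 in ethanol 2, 3 and 4, against 10.81, 10.21, 10.49 and 10.82 in controls 1 to 4. Both groups spanned nearly the same range, with ethanol 2 and control 2 at the bottom of it. Its difference was 0.049 (SE 0.205, 95% confidence interval -0.41 to 0.51, limma adjusted p = 0.984). This direction turned not only after quantile normalization but also with single arrays left out, to -0.073 without control 2, to -0.068 without ethanol 3 and to -0.043 without ethanol 4.

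Sftpd, which encodes the collectin surfactant protein D, was read by M81231_at. Its log2 values were 9.36, 9.76 and 10.44 in ethanol 2, 3 and 4, against 10.54, 9.90, 10.07 and 9.95 in controls 1 to 4. Ethanol 2 and 3 were below every control, while ethanol 4 was second only to control 1. The mean was 9.85 ± 0.547 with ethanol (SD, n = 3) and 10.11 ± 0.290 in controls (SD, n = 4). The difference of -0.26 (SE 0.251, limma adjusted p = 0.967) had the widest interval of the 6 probe sets, -0.83 to 0.30, or 0.564 to 1.23 times the control level. It rested on single arrays: without ethanol 4 it was -0.56 (unadjusted p = 0.0298, limma adjusted p = 0.983), and without ethanol 2 it was -0.014 (limma adjusted p = 0.995).

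**Figure D1:**
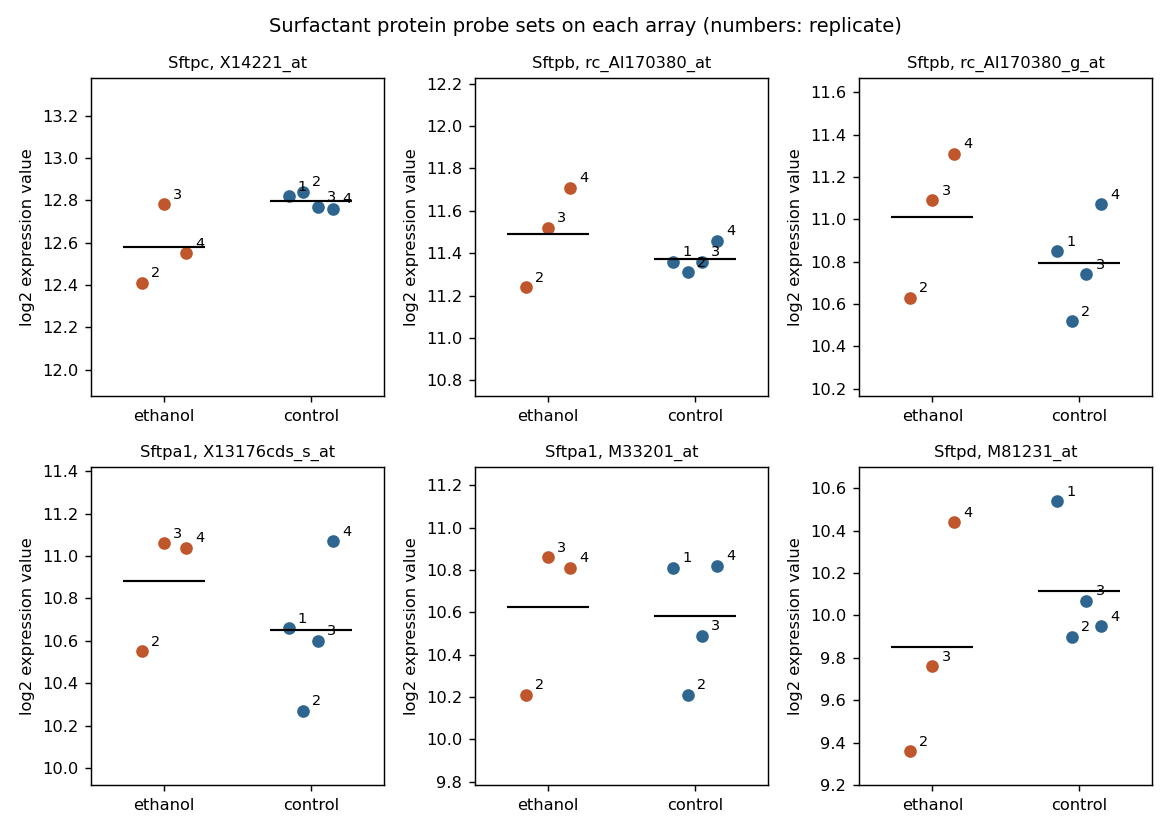
Log2 expression value of each surfactant protein probe set (vertical axis, the same span in each panel) on the 3 ethanol and 4 control arrays; numbers are replicates and lines are group means. The control values of Sftpc lie between 12.76 and 12.84, while ethanol 2 and 4 lie at 12.41 and 12.55; the groups overlap in every panel.

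The width of the intervals set what could be seen. The distance from the difference to either end of its 95% interval was 0.275 log2 units for Sftpc, 0.302 and 0.420 for the Sftpb probe sets, 0.454 and 0.461 for those of Sftpa1 and 0.564 for Sftpd. By this fit the ethanol level could therefore lie between 0.882 and 1.34 times the control level for Sftpb by rc_AI170380_at, and for Sftpa1 between 0.857 and 1.61 times by X13176cds_s_at. These widths depend on the variance prior. With a trended and robust prior the differences were unchanged, but the limma unadjusted p rose for all 6 probe sets. It went from 0.105 to 0.427 for Sftpc, from 0.396 to 0.638 for rc_AI170380_at and from 0.324 to 0.406 for Sftpd. The wider intervals that go with this are not given here. Among the 35 probe sets with a mean log2 value of at least 10, the median size of the difference was 0.192 and the median SE was 0.195. The 6 surfactant protein probe sets are themselves among these 35, and 4 of the 6 had a difference larger than that median. Over all probe sets the median SE was 0.148, and 4 of the 6 had a larger SE.

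Both probe sets of a gene followed the same arrays. Over the 7 arrays the pair for Sftpb correlated at r = 0.934 and the pair for Sftpa1 at r = 0.865, as a description of probe sets that read the same RNA. For Sftpb the first probe set stood 0.480 ± 0.116 above the second with ethanol and 0.575 ± 0.170 in controls (SD, n = 3 and 4; exact two-sided permutation p = 0.514). For Sftpa1, X13176cds_s_at stood 0.254 ± 0.073 above M33201_at with ethanol and 0.072 ± 0.167 in controls (SD, n = 3 and 4; exact two-sided permutation p = 0.143). The smallest p that 4 arrays against 3 can give is 0.0286. The gap between the Sftpa1 probe sets was 0.34, 0.20 and 0.23 in ethanol 2, 3 and 4, against -0.14, 0.06, 0.11 and 0.26 in controls 1 to 4, so control 4 overlapped the ethanol arrays. The suffix _s_at is the one Affymetrix gives to probe sets whose probes can match more than one transcript.

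**Figure D2:**
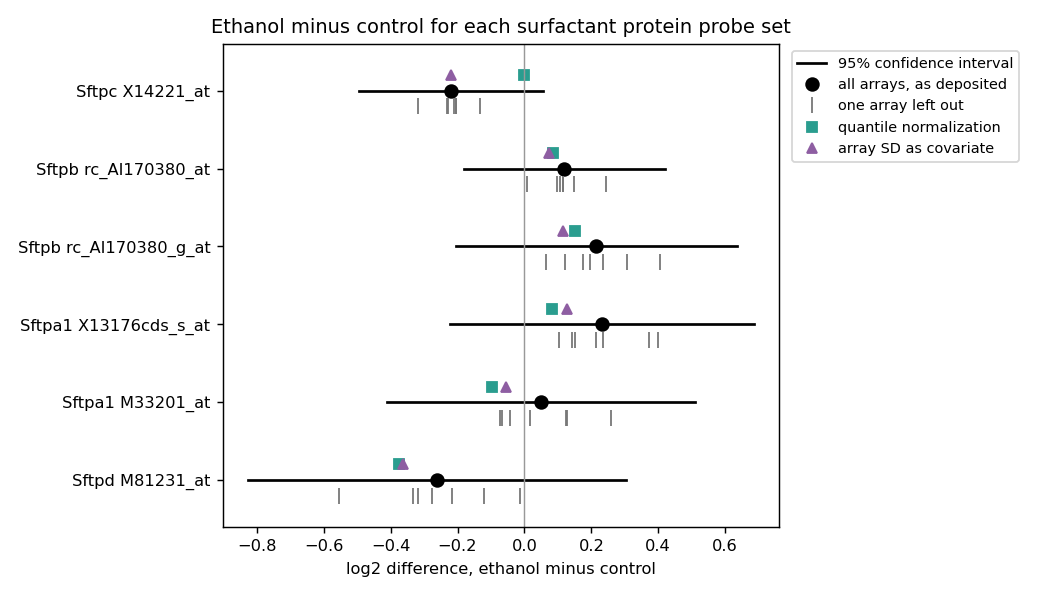
Log2 difference, ethanol minus control, for each of the 6 probe sets, with its 95% confidence interval (black), the value with each array left out (ticks), after quantile normalization (squares) and with the SD of each array as a covariate (triangles). All 6 intervals include 0. Sftpc sits at 0 after quantile normalization because the brightest probe set of every array then has the same value.

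Arrays differed in the spread of their values, and by Pearson's r the level of Sftpa1 followed that spread. The array means were equal to within 0.01. With equal means, a probe set far above the mean can rise with the spread simply because it is bright. The SD also includes the probe set itself. The relations below are therefore not shown to be particular to these genes, and the share of other bright probe sets with such a relation was not counted. The SD of the log2 values was 1.337, 1.388 and 1.459 on ethanol 2, 3 and 4, against 1.401, 1.285, 1.363 and 1.437 on controls 1 to 4 (exact two-sided permutation p = 0.657 for the groups). Over the 7 arrays, Sftpa1 correlated with this SD at Pearson r = 0.890 (exact permutation p = 0.0103, adjusted over 4 genes 0.0413) and Spearman rho = 0.821 (exact permutation p = 0.0341, adjusted 0.096). Without ethanol 4 and control 2, the arrays farthest from the median SD, r was 0.758. Sftpb gave r = 0.794 (exact permutation p = 0.0325, adjusted 0.0651) and rho = 0.786 (exact permutation p = 0.048, adjusted 0.096), with r = 0.704 without those arrays.

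Sftpd and Sftpc gave relations with the array spread that did not pass. For Sftpd r was 0.538 (exact permutation p = 0.212, adjusted 0.283) and rho 0.607 (exact permutation p = 0.167, adjusted 0.222), with r = 0.524 without ethanol 4 and control 2. For Sftpc r was -0.128 (exact permutation p = 0.772, adjusted 0.772) and rho -0.321 (exact permutation p = 0.498, adjusted 0.498), with r = 0.691 without those arrays. With the array SD as a covariate in limma, a model chosen after the data were seen, the differences were -0.22 for Sftpc, 0.073 and 0.12 for Sftpb, 0.13 and -0.055 for Sftpa1 and -0.36 for Sftpd, with 0 of 6 past the threshold. The Sftpc and Sftpd probe sets had the lowest adjusted p in that model, 0.668 each.

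**Figure D3:**
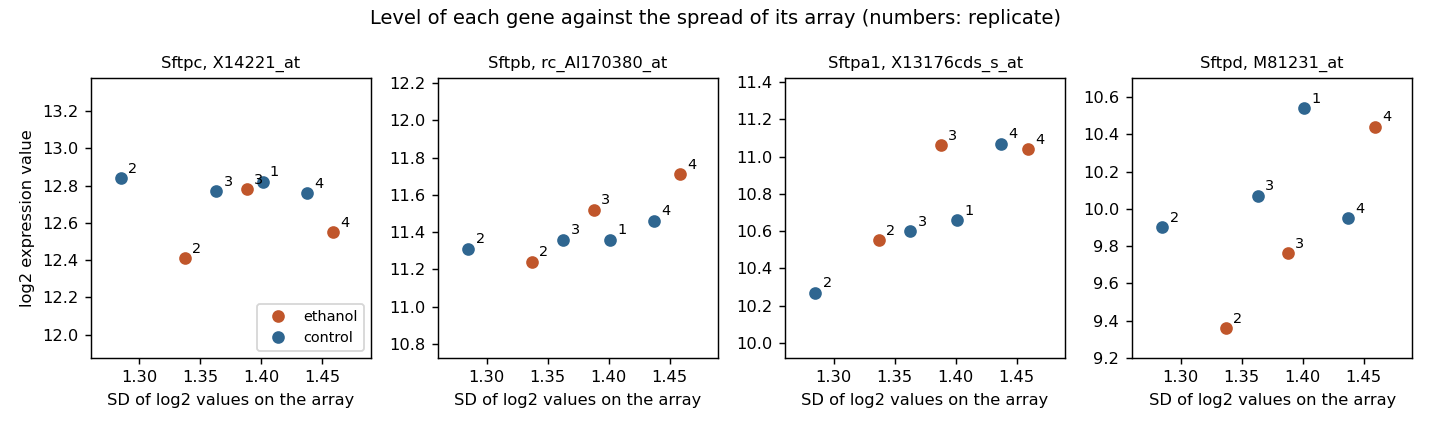
Log2 expression value of the brightest probe set of each gene against the SD of all log2 values on the array, for 3 ethanol and 4 control arrays (numbers are replicates). Sftpa1 is lowest on control 2, the array with the lowest SD of 1.285, while ethanol 2 is the lowest array for Sftpc and Sftpd.

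Over all 7 deposited values, Sftpb and Sftpa1 were the pair with the highest correlation. Over the 7 arrays their brightest probe sets correlated at Pearson r = 0.789 (exact permutation p = 0.0282, adjusted over the 6 pairs of genes 0.169) and Spearman rho = 0.786 (exact permutation p = 0.048, adjusted 0.288), so the relation did not pass after adjustment. It was r = 0.790 without ethanol 3 and ethanol 4, and r = 0.748 with the group means removed, where Sftpb with Sftpd gave 0.758. After quantile normalization the relation turned round, to r = -0.515. That normalization gives each array the same set of values, so it leaves little but rank among the brightest probe sets. Sftpb ranked between 4 and 7 on every array by rc_AI170380_at, and Sftpa1 between 9 and 18 by X13176cds_s_at. After that normalization rc_AI170380_at was at 11.13 on control 4 and at 11.43 to 11.46 on the other arrays. The r of -0.515 therefore rests mostly on control 4.

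Over all 7 values the other pairs had lower r. Sftpb with Sftpd gave r = 0.508 (exact permutation p = 0.245, adjusted 0.711), with rho = 0.357 (exact permutation p = 0.444, adjusted 0.783) and r = 0.541 without ethanol 3 and 4. The neighbours Sftpa1 and Sftpd gave r = 0.211 (exact permutation p = 0.642, adjusted 0.865), with rho = 0.214 (exact permutation p = 0.662, adjusted 0.783) and r = 0.551 without ethanol 3 and control 4. Sftpc gave r = 0.401 with Sftpd (exact permutation p = 0.355, adjusted 0.711), r = -0.065 with Sftpb (exact permutation p = 0.865, adjusted 0.865) and r = -0.099 with Sftpa1 (exact permutation p = 0.804, adjusted 0.865). Its rho values were 0.214, -0.143 and -0.214 (exact permutation p = 0.662, 0.783 and 0.662, each adjusted to 0.783). Without ethanol 2 and ethanol 4, the low arrays for Sftpc, r was 0.321 with Sftpd, while the values with Sftpb and Sftpa1 rested on those arrays and were -0.724 and -0.800 without them.

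**Figure D4:**
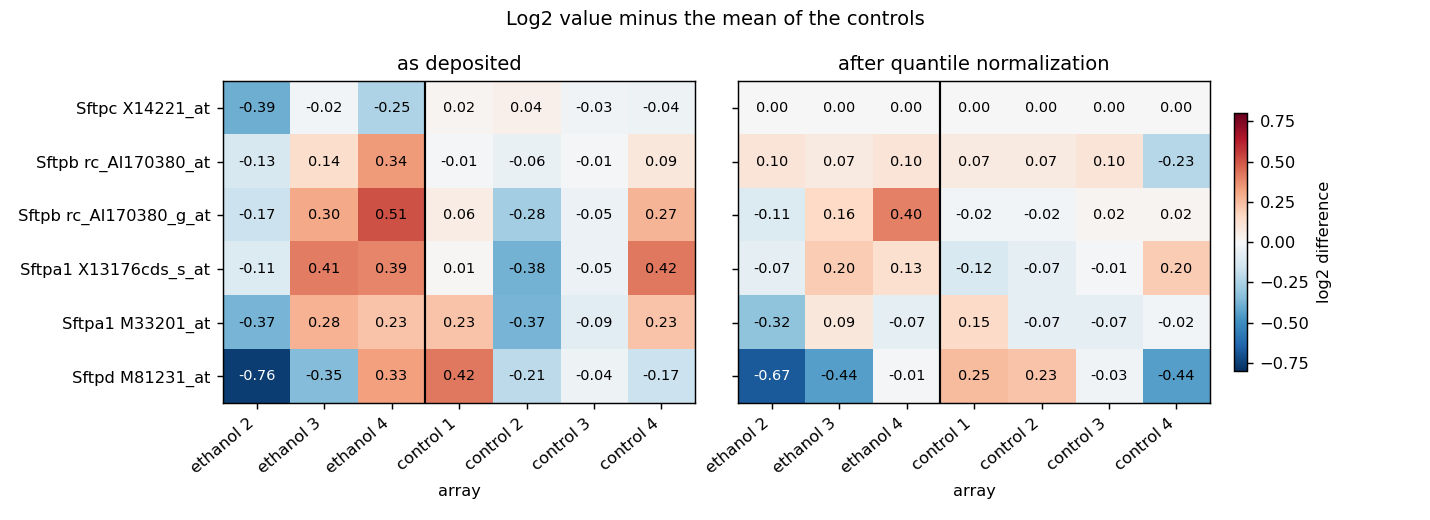
Log2 value of each surfactant protein probe set minus its mean over the 4 controls, on each array (columns), as deposited (left) and after quantile normalization (right); red is above and blue below the control mean. On the deposited scale ethanol 2 is below the control mean in all 6 probe sets, by 0.11 to 0.76; ethanol 4 is above it in 5 and below it in Sftpc. After quantile normalization ethanol 2 is 0.10 above for 1 Sftpb probe set, and Sftpc is at 0.0 on every array because it is always the brightest.

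On the deposited scale all 6 surfactant protein probe sets lay below the control mean on ethanol 2, by 0.11 to 0.76. They lay below it on control 3 as well, but by 0.01 to 0.09. Deviations on ethanol 2 were -0.39 for Sftpc, -0.13 and -0.17 for Sftpb, -0.11 and -0.37 for Sftpa1, and -0.76 for Sftpd. After quantile normalization they were 0.0, 0.10 and -0.11, -0.07 and -0.32, and -0.67, so on that scale not all 6 lay below. The 0.0 of Sftpc is fixed in advance, since it is the brightest probe set on every array. The 0.10 belongs to rc_AI170380_at, which ranked between 4 and 7 and so can take few values. Neither can show well whether ethanol 2 was low. On ethanol 3, as deposited, the same probe sets stood at -0.02, 0.14, 0.30, 0.41, 0.28 and -0.35. On ethanol 4 they stood at -0.25, 0.34, 0.51, 0.39, 0.23 and 0.33, so Sftpc was the only one of the 6 below the control mean on that array.

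The mean log2 level of 6 measured type 2 cell markers other than these genes was 7.89 on ethanol 2, 8.54 on ethanol 3 and 8.73 on ethanol 4, against 8.13 to 8.67 in controls. These were Nkx2-1, Muc1, Ctsh, Cebpa, Lyz2 and Cd74, out of 13 listed, and Abca3, Lamp3, Napsa and Slc34a2 were not among those measured. The mean is therefore not a measure of type 2 cell content. The 7 measured epithelial markers averaged 6.77 on ethanol 2, with 7.18 and 7.46 on ethanol 3 and 4, against 6.91 to 7.45 in controls. Ethanol 2 was thus the lowest array for both lists. It was the highest array for the type 1 cell markers, at 5.62 against 5.31 to 5.49 on the others. Its mean for the airway club cell markers, 7.00, lay within the control range of 6.39 to 7.41. The array SD of ethanol 2, 1.337, was below that of every array but control 2. Epcam, an epithelial adhesion gene, ran from 6.46 to 7.66 with ethanol and from 6.79 to 8.09 in controls. Of the erythroid markers, the globin gene Hbb ran from 5.03 to 8.33 with ethanol and from 6.00 to 6.57 in controls, and the mean of the 3 measured erythroid markers was highest on ethanol 2, at 6.86, against 5.66 and 6.21 on ethanol 3 and 4 and 6.12 to 6.41 in controls. That mean was carried by Hbb, since Alas2 was at 5.91 to 6.11 with ethanol and 5.99 to 6.33 in controls, and Slc4a1 at 5.99 to 6.14 and 6.14 to 6.50. The part of the cell makeup in the surfactant protein values was not tested. In bulk RNA, fewer type 2 cells and less surfactant mRNA per cell cannot be told apart. Leaving out ethanol 2 moved the 6 differences to -0.13 for Sftpc, 0.24 and 0.41 for Sftpb, 0.40 and 0.26 for Sftpa1 and -0.014 for Sftpd, with a lowest limma adjusted p of 0.953.

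Markers of other cells that a lung isolate can hold overlapped between the groups in their mean level per array, except for the T and natural killer cell list and the mesenchymal list, whose ranges met at 5.47. The 7 macrophage and monocyte markers averaged 4.23 to 4.38 with ethanol and 4.12 to 4.40 in controls, and the 6 endothelial markers 5.07 to 5.25 and 5.15 to 5.33. The 6 type 1 cell markers averaged 5.37 to 5.62 with ethanol and 5.31 to 5.49 in controls. Of these 6 genes 2 (33.3%, against 4.37% of all genes) were at unadjusted p under 0.05, in opposite directions. They were Pdpn at -0.47 and Cav1 at 0.58 (limma adjusted p = 0.967 each). The 13 mesenchymal markers averaged 5.27 to 5.47 with ethanol and 5.47 to 5.67 in controls (exact two-sided permutation p = 0.0857, adjusted over 13 lists 0.557). Of those 13 genes 10 were below 0 and 5 (38.5%, against 4.37% of all genes) were at unadjusted p under 0.05, all on the lower side: Eln at -0.80, Col3a1 at -0.99, Col1a2 at -0.62, Col1a1 at -0.50 and Tagln at -0.28, with limma adjusted p of 0.403 to 0.967. The 4 B cell markers averaged 4.88 to 5.05 with ethanol and 4.97 to 5.09 in controls. The 6 airway club cell markers averaged 6.76 to 7.15 with ethanol and 6.39 to 7.41 in controls, and Scgb1a1, the club cell secretory protein gene, ran from 9.13 to 9.40 and from 8.91 to 9.83. Of these 6 club cell genes 4 were above 0, and Cyp2b2, a cytochrome P450 gene, was at 6.87 to 7.25 with ethanol and 6.12 to 6.84 in controls, a difference of 0.68 (unadjusted p = 0.00456, limma adjusted p = 0.813), with its other probe set at 1.86 (limma adjusted p = 0.292). The part of these markers in the surfactant protein values was not tested. The 13 T and natural killer cell markers averaged 4.34 to 4.46 with ethanol and 4.48 to 4.54 in controls (exact two-sided permutation p = 0.0286, adjusted over 13 lists 0.372), near the array medians of 4.56 to 4.62. Club cells can also make surfactant proteins A, B and D, so the signal of those genes need not come from type 2 cells alone. A measure of RNA integrity overlapped as well: the 3′ minus 5′ signal was 0.826 ± 0.245 with ethanol and 0.760 ± 0.175 in controls for actin (SD, n = 3 and 4; exact permutation p = 0.6).

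The promoters of Sftpb and Sftpa1 are shown because these genes had the highest correlation of the 6 pairs over all 7 deposited values. Both are from the RefSeq promoter table of the GRCr8 assembly, on the plus strand, and end at the base before the first annotated transcript base of the gene. Capitals mark CAAG on either strand, the core letters bound by NKX2-1, with the longer form CTCAAG, and TATAA, the TATA box letters, all chosen after the sequences had been read. The stretch for Sftpb covers chr4:105917338-105917494 and that for Sftpa1 chr16:17042014-17042263.
Sftpb: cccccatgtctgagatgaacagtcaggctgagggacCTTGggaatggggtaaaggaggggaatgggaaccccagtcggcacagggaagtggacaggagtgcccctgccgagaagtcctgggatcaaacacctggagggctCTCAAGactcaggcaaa
Sftpa1: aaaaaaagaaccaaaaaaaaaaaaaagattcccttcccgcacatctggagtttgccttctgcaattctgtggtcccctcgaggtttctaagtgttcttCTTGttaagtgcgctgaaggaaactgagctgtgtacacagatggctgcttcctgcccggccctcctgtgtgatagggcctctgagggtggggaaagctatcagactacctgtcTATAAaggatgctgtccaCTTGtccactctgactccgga

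The Sftpb stretch of 157 bases held CAAG at 2 places, and 70.8% of 33469 RefSeq promoter stretches of that length held it at least once. One of those places was part of CTCAAG, which 8.16% of the stretches held. The compared stretches end at the start given in the promoter table. For Sftpb that start lies after the first annotated transcript base, so its own stretch ends earlier than theirs. The Sftpa1 stretch of 250 bases also held CAAG at 2 places, against 86.7% of stretches of that length, and TATAA at 1 place, 39 bases before the gene start, against 24.0%. The core letters are thus common in promoters, and a match is not a measured binding site. In the RefSeq gene order of the same assembly, Sftpa1 and Sftpd lie near each other, with a pair of pseudogenes and Mbl1, which encodes another collectin, the mannose-binding lectin A, between them. Mbl1 was at 4.12 to 4.35 with ethanol and at 4.15 to 4.25 in controls, near the array median, with a log2 difference of 0.01 (95% confidence interval -0.24 to 0.26, limma adjusted p = 0.999).

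Genes around the surfactant proteins did not pass the test either. Of 29 listed transcriptional regulators 23 were measured, and 19 had a difference above 0 and 4 below, a share of 82.6% against 46.6% of all 4736 genes. Their median difference was 0.082, against -0.014 over all genes. With the probe sets of each gene averaged, 17 of the 23 were above 0. The mean level of the list per array overlapped between the groups, at 5.69 to 5.99 with ethanol and 5.55 to 5.82 in controls (exact two-sided permutation p = 0.286, adjusted over 13 lists 0.742). In limma 0 of 23 passed, against 0.0211% of all genes, and 3 (13.0%) were at unadjusted p under 0.05, against 4.37% of all genes. The forkhead factor gene Foxa2, whose product binds surfactant gene promoters, was at 4.47 to 4.95 with ethanol and 4.96 to 5.58 in controls, a difference of -0.53 (SE 0.174, limma adjusted p = 0.967). Jund, an AP-1 subunit gene, was at 7.05 to 8.39 and 4.68 to 7.38, a difference of 1.72 (SE 0.657, limma adjusted p = 0.967), and Nfib, a nuclear factor I gene needed for lung maturation, was at 0.35 (limma adjusted p = 0.967), with 3 other probe sets between 0.00 and 0.16.

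Nkx2-1 was at 5.46 to 6.33 with ethanol and 6.16 to 6.76 in controls, a difference of -0.41 (SE 0.222, limma adjusted p = 0.967), with its second probe set at -0.09. Its difference was -0.16 without ethanol 2. Foxa1, another forkhead factor gene, was at -0.17. Cebpa, which encodes the CCAAT-binding factor C/EBP alpha, was at 0.12, with its second probe set at -0.08. Of the 20 genes listed for surfactant processing and lamellar bodies 11 were measured, with 7 above 0, 4 below, a median of 0.036 and 0 past the threshold. Ctsh, the cathepsin H gene, whose product cuts the precursors of surfactant proteins B and C, was at 0.10. Prdx6, which encodes a peroxiredoxin with phospholipase activity that acts in surfactant turnover, was at 0.27, with 2 other probe sets at 0.18 and 0.45. Fasn, the fatty acid synthase gene, was at 0.80 (SE 0.298, limma adjusted p = 0.967), with its second probe set at 0.40. It was the only one of the 11 at unadjusted p under 0.05. Scd, a fatty acid desaturase gene, was at -0.35, with its second probe set at -0.14. The brighter probe set of each rested on single arrays. Fasn was at 1.21 without ethanol 2 (limma adjusted p = 0.0832) and 0.49 without ethanol 4. Scd was at -0.020 without ethanol 2, -0.74 without ethanol 4 and -0.54 without control 2. Of the 18 other collectin and receptor genes 8 were measured, with 5 above 0, 3 below, a median of 0.055 and 0 past the threshold or at unadjusted p under 0.05. Cd14, which encodes a lipopolysaccharide receptor that surfactant protein A binds, was at 0.12, with its second probe set at 0.17. Single arrays moved these as well, with Prdx6 at 0.42 without control 1 and Cd14 at 0.0062 without ethanol 2.

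**Figure D5:**
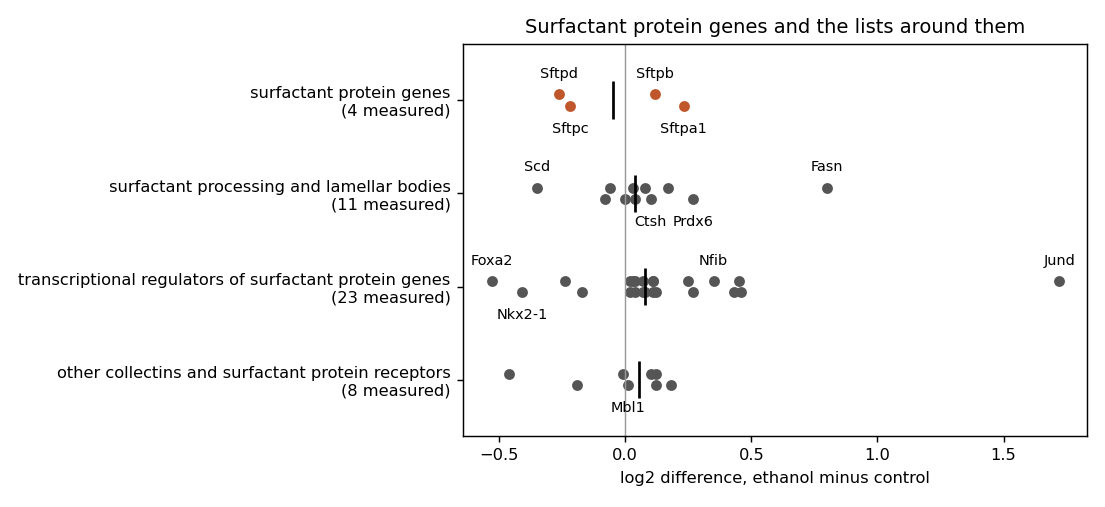
Log2 difference, ethanol minus control, of the brightest probe set of each gene (points) for the 4 surfactant protein genes and the measured genes of 3 lists around them; black lines are list medians, and points are offset vertically for legibility. Sftpc and Sftpd lie at -0.22 and -0.26, Sftpb and Sftpa1 at 0.12 and 0.23, with Jund at 1.72 as the farthest point.

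Genes with the most similar pattern were taken by Pearson correlation over the 7 arrays, among 2070 other genes with a mean log2 value of at least 5. For Sftpd they were Snf8, of the endosomal sorting machinery (r = 0.989), Slc4a2, an anion exchanger gene (r = 0.966), and Idh2, the mitochondrial isocitrate dehydrogenase gene (r = 0.960). After quantile normalization these stood at 0.888, 0.794 and 0.930. For Sftpa1 they were Cd59b, a complement regulator gene (r = 0.966), Ptp4a1, a phosphatase gene (r = 0.965), and Eef1a1, a translation elongation factor gene (r = 0.963), which stood at 0.850, 0.858 and 0.851 after quantile normalization.

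For Sftpb the nearest were Id1, which encodes an inhibitor of helix-loop-helix factors (r = 0.958), the stress-induced factor gene Atf3 (r = 0.941), and Oat, the ornithine aminotransferase gene (r = 0.939). After quantile normalization they stood at -0.083, 0.055 and -0.258. On that scale rc_AI170380_at was at 11.43 to 11.46 on every array but control 4, where it was at 11.13. These r values therefore rest mostly on control 4 and cannot show whether the 3 likenesses were kept. For Sftpc they were Ier5, an immediate early response gene (r = 0.959), Eif2s1, which encodes the alpha subunit of translation initiation factor eIF2 (r = 0.952), and Ets1, a transcription factor gene (r = 0.943). No value exists for Sftpc after quantile normalization, because it then has the same value on every array. These 12 genes were the highest of many correlations over 7 points, and the r values are a description. Their ethanol minus control differences ran from -0.77 for Ets1 to 0.58 for Atf3, with limma adjusted p of 0.403 to 0.971. Some rested on single arrays: Atf3 was at 1.08 without ethanol 2 and 0.24 without ethanol 4, and Id1 at 0.82 and 0.13.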

How the data were processed

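Values came from the table of the series, which the authors deposited with 1 log2 expression value per probe set and array. The log2 scale was inferred from the range (1.65 to 12.84). The background correction, probe summarisation and normalization behind it are not given in the sources used here. Array means lay at 4.758 to 4.760. After removal of 59 probe sets that serve as array controls, 8740 were tested with limma 3.58.1 in R 4.3.3 (diet group as the term, empirical Bayes moderation), two-sided, with Benjamini-Hochberg adjustment over all of them. Symbols came from the platform annotation; 7006 probe sets had 1 symbol, 308 several and 1426 none, and 6985 of the 7006 matched the RefSeq table of GRCr8 by Entrez identifier. The probe set with the highest mean stood for a gene in lists (4736 genes). Genes named beside the members were, by rule, the 3 most correlated genes per member, and from each of 13 lists the first 4 measured and any at unadjusted p under 0.05; those printed were picked from these after their values were seen. Members and lists were chosen with earlier results of these data known. Replicate numbers were not treated as pairs in the main fit. Deviations of same-numbered arrays from their group means correlated at 0.425, 0.0666 and 0.432, and those of arrays with different numbers at -0.531 to 0.352. Whether same-numbered arrays share an effect was not tested, and a replicate block was fitted as an alternative. Alternatives were quantile normalization, median centring, filters at a mean of 4 and 5, a trended robust prior, array weights, no moderation, a replicate block, averaging the probe sets of each gene, each array left out, and, added after seeing the data, array SD as a covariate. The main limma model was tested on simulated data, with noise drawn independently for each probe set and array. The number of arrays limits the precision. Figures used matplotlib 3.10.9 in Python 3.11.15.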

Additional observations from a re-analysis of the deposited data

Results flagged for a closer look

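Of 45 measures checked for a control array far from the other controls, 1 stood out, where chance gives about 1 in 20. Cebpa (X12752_at) was measured at 6.04 in control 2, below the 6.42 to 6.47 of controls 1, 3 and 4. Control 2 also had the lowest array SD, 1.285.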

How the results depend on the processing

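In 16 alternatives for each of 6 surfactant protein probe sets, 0 of 96 fits had an adjusted p under 0.05 (lowest 0.458), and 5 turned direction, all for M33201_at of Sftpa1. These were -0.098 with quantile normalization, -0.055 with array SD as a covariate, and 3 fits with an array left out. With each array left out, the ranges were -0.32 to -0.13 for Sftpc, 0.0081 to 0.24 and 0.065 to 0.41 for Sftpb, 0.10 to 0.40 and -0.073 to 0.26 for Sftpa1, and -0.56 to -0.014 for Sftpd. Quantile normalization set Sftpc to 0.0, because the brightest probe set of every array then has 1 value. Averaging the probe sets of each gene gave 0.17 for Sftpb and 0.14 for Sftpa1. The replicate block, which sets control 1 aside, changed no member's call but gave -0.12 for Sftpd and 0.13 for M33201_at. Array weights gave -0.10 for Sftpc and 0.16 for M33201_at, and quantile normalization 0.084 for X13176cds_s_at of Sftpa1. The count of probe sets called was 13, and 23 with the replicate block (710 at unadjusted p under 0.05), 0 without moderation (367 at unadjusted p under 0.05) and 13 to 16 with each array left out.

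Relations between genes changed with the scale. With group means removed, r was 0.366 for Sftpc with Sftpb, 0.299 for Sftpc with Sftpa1, 0.231 for Sftpc with Sftpd, 0.758 for Sftpb with Sftpd and 0.405 for Sftpa1 with Sftpd. After quantile normalization r was -0.515 for Sftpb with Sftpa1, 0.297 for Sftpb with Sftpd and -0.452 for Sftpa1 with Sftpd. The r values with Sftpb on that scale rest mostly on control 4. There rc_AI170380_at was at 11.13, against 11.43 to 11.46 on the other arrays. The mesenchymal list had 3 of 13 genes above 0, and 5 with probe sets averaged per gene. The cause of these changes was not tested.

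Among other named genes, quantile normalization gave -0.013 for Ctsh. Array weights gave -0.048 for Mbl1, 0.11 for Scgb1a1 and -0.36 for Hbb. The replicate block gave 0.14 for Scgb1a1, and array SD as a covariate gave -0.0058 for Eef1a1. With each array left out, direction was not kept by Cebpa (-0.098 to 0.31), Ctsh (-0.046 to 0.33), Mbl1 (-0.064 to 0.055), Scgb1a1 (-0.17 to 0.14), Hbb (-0.36 to 1.30), Oat (-0.083 to 0.34), Ptp4a1 (-0.00088 to 0.36) and Eef1a1 (-0.023 to 0.41). Pdpn and Cav1 were not followed through the alternatives. In none of the alternatives did another named gene pass.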
